A study of Mus musculus with 2 samples.

Results

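The anti-Müllerian hormone gene Amh, its receptor gene Amhr2 and the gonadotropin receptor genes Fshr and Lhcgr were examined on single-colour oligonucleotide arrays of cultured mouse ovary. Probes were found by the RefSeq accession that the array design gives to each of them, which yielded 4 probes for the 4 genes, out of 55674 probes and 20658 genes with a named probe. Each gene had 1 probe printed at 1 spot, and the members are genes read through these probes. Pieces of ovaries from 2-week-old mice, which are sexually immature, were cultured for 3 days with ligands of the tachykinin (TK) receptors (TKRs), and RNA was extracted from the pieces. The agonist array holds RNA of ovaries treated with tachykinin receptor agonists, with a selective ligand for each of the receptors TACR1, TACR2 and TACR3 at 1 μM. The antagonist array holds RNA of ovaries treated with tachykinin receptor antagonists of the same 3 receptors, also at 1 μM each. Both groups share the age, the cutting of the ovary and the culture time, and the labels give neither the strain nor the number of ovaries behind each RNA. An array without ligands was not analysed here, so a difference cannot be assigned to the agonists or to the antagonists. There was 1 array for each group, so the spread between ovaries is unknown, no test was possible and no p-value is given.

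AMH is a hormone of the transforming growth factor β (TGF-β) family that granulosa cells of growing, small follicles secrete, and it restrains the recruitment and FSH response of follicles. It binds the type II receptor AMHR2, which pairs with a type I receptor and phosphorylates SMAD proteins of the bone morphogenetic protein branch. The FSH receptor (FSHR) is found on granulosa cells, and the LH receptor (LHCGR) on theca cells and, late in follicle growth, on granulosa cells of preovulatory follicles. Both receptors couple to the stimulatory G protein and raise cyclic AMP. Amh and Fshr are therefore commonly read as markers of growing follicles, and Lhcgr as a marker of theca cells and of late follicles.

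The promoters of the receptor genes are shown because members of the group differed in direction on the arrays. Each line is the 250 bases before the RefSeq transcription start, 5′ to 3′ on the strand of the gene, from the RefSeq promoter table of build GRCm38.p6; no promoter was matched for Amh. Capitals mark matches to a motif. The lines are Amhr2 at chr15:102445117-102445366 on the plus strand, Fshr at chr17:89200676-89200925 on the minus strand and Lhcgr at chr17:88792015-88792264 on the minus strand.
Amhr2: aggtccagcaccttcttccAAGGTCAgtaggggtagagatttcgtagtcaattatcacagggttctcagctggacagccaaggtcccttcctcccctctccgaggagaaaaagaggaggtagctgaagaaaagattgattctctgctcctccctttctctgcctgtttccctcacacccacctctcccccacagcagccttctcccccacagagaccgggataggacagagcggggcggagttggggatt
Fshr: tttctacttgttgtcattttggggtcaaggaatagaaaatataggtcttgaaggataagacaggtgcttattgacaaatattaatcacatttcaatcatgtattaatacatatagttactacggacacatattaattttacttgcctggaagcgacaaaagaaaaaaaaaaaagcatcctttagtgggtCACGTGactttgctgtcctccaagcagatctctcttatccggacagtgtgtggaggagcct
Lhcgr: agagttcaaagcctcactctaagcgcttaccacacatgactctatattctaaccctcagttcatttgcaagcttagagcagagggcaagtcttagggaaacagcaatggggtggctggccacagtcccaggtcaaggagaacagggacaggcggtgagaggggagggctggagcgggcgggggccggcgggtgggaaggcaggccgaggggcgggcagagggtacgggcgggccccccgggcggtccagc

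The 4 motifs searched on both strands were AAGGTCA of the nuclear receptor SF-1, AGATAA of GATA factors, the E-box CACGTG and ACAAAG of SOX factors; none is part of another. The Amhr2 promoter held AAGGTCA from 231 to 225 bases upstream of the start, a motif found in 4.08% of the 32851 promoters of the table over the same length. The Fshr promoter held the E-box CACGTG from 61 to 56 bases upstream, a motif found in 6.02% of promoters. The Lhcgr promoter held no match to the 4 motifs, while AGATAA was found in 9.99% and ACAAAG in 16.5% of promoters. The promoters also differed in base composition. Lhcgr had 63.2% G and C with 12 CG pairs, Amhr2 had 55.2% with 5, and Fshr had 36.8% with 4, against medians of 52.4% and 6 over all promoters. These matches describe letters in the window and not the binding of a factor.

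The signal of a spot is its fluorescence in intensity units as processed by the image analysis software, without scaling between the arrays. Processing includes subtraction of the background, but the signal need not equal the background-subtracted value. The software gives each signal an error and marks whether it lies well above background. The lowest signal with this mark was 18.1 units for the agonists and 19.9 units for the antagonists. Of the 59305 spots that are not controls, 65.4% had the mark with the agonists and 61.6% with the antagonists. No member spot was saturated or marked as an outlier.

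Amh, the ligand of the axis, was detected well above background in both groups. Its signal was 198 ± 20.2 units (software error of 1 spot) with the agonists and 266 ± 27.0 units with the antagonists. The signal was thus lower with the TKR agonists before any scaling. In RNA of whole tissue, fewer cells of a type and less RNA per cell cannot be told apart, here and for the other members.

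Amhr2, the type II receptor that only AMH is known to use, had a bright spot on each array, although signals of different probes do not measure the relative amounts of their transcripts. Its signal was 37832 ± 3783 units with the agonists and 24620 ± 2462 units with the antagonists. Unlike Amh, it was higher with the TKR agonists. These signals are unscaled, and the agonist array was brighter at the 75th percentile of its spots, with 672 units beside 569 units. The probe is named for the transcript NM_144547, 1 of 3 RefSeq transcripts of the gene.

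Fshr, through which granulosa cells respond to FSH, had a signal of 195 ± 19.9 units with the agonists and 274 ± 27.7 units with the antagonists. Its signal was lower with the TKR agonists, as that of Amh was, and well above background on both arrays.

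Lhcgr was not well above background on either array. The software recorded 4.29 ± 4.31 units with the agonists and 4.49 ± 4.51 units with the antagonists. The background-subtracted values of the spot were 2.09 units with the agonists and -0.74 units with the antagonists, and neither was marked as significantly positive. The recorded signals differ from these values, so they and their errors are not read as measured amounts. The median pixel of the spot was 47 units on both arrays, beside local backgrounds of 43 and 48 units. The recorded Lhcgr signal lay below the lowest signal well above background on both arrays, at 0.237 and 0.226 times that signal, and no ratio was calculated. The gene has 9 RefSeq transcripts, and the probe, named for NM_013582, reads only those that hold its sequence. LH receptor transcript was therefore not detectable with this probe at this signal, which does not show that it was absent.

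**Figure D1:**
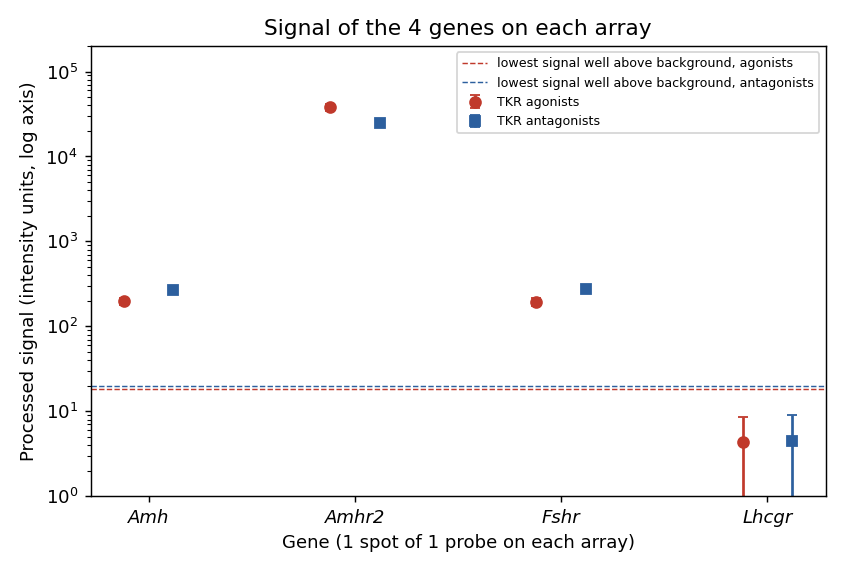
Processed signal (intensity units, log axis) of Amh, Amhr2, Fshr and Lhcgr on the TKR agonist array (circles) and the TKR antagonist array (squares), 1 spot each; bars are the software's error of the spot, those of Lhcgr run below the axis, and dashed lines are the lowest signal well above background on each array. Amh and Fshr sit lower and Amhr2 higher on the agonist array, while both Lhcgr spots lie under the dashed lines.

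For the comparison between arrays, the log2 of the 75th percentile of each array was subtracted from its log2 signals. This percentile was 672 units with the agonists and 569 units with the antagonists. A log2 ratio below is the value with the agonists minus that with the antagonists. The log2 ratio of Amh was -0.67 ± 0.21 (error of the spots as the software estimates it), or 1.59-fold lower with the agonists. That of Fshr was -0.73 ± 0.21, or 1.66-fold lower. That of Amhr2 was 0.38 ± 0.20, or 1.30-fold higher. Such an error belongs to a spot and says nothing of how ovaries vary. Of the 3 genes, 1 had a log2 ratio above 0 and 2 below, where 36.9% of the 33073 probes detected well above background in both groups were above 0 and 63.1% below. None of the 3 genes passed a 2-fold difference. Of the same probes, 2.69% were past 2-fold upward with the agonists and 0.705% past 2-fold downward, and their median log2 ratio was -0.10. The upward calls were 79.3% of all calls, and 93.9% with no scaling or 94.9% when scaled on the spike-in controls.

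The ratios of Amh and Fshr lay far down in this distribution. Of these 33073 probes, 3.34% had a lower log2 ratio than Amh and 2.48% a lower one than Fshr. Of the same probes, 11.8% had a higher log2 ratio than Amhr2. Among the probes within 0.5 of Amh in mean log2 signal, the log2 ratio had a 5th percentile of -0.54 and a 95th of 0.82, and the values for Fshr were the same at this precision. For Amhr2 they were -0.50 and 0.51. Amh and Fshr were therefore below the lower percentile of probes of like brightness, and Amhr2 lay between both.

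**Figure D2:**
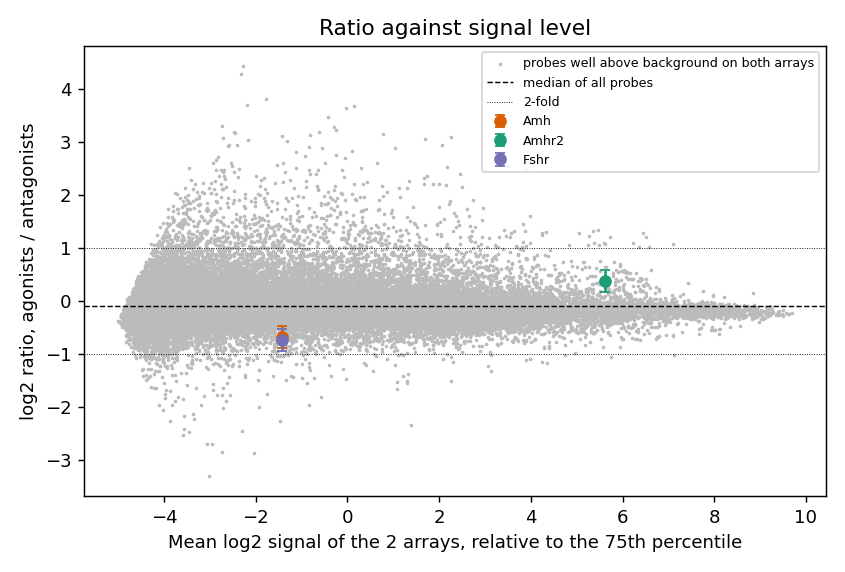
The log2 ratio of agonists to antagonists (vertical axis) against the mean log2 signal of the arrays relative to the 75th percentile (horizontal axis) for 33073 probes (grey) well above background in both groups, with Amh, Fshr and Amhr2 in colour; bars are the software's error, the dashed line is the median of all probes and dotted lines mark 2-fold. Amh and Fshr, at -0.67 and -0.73, lie on nearly the same spot near the lower edge of the cloud, and Amhr2, at 0.38, lies above its middle at a bright signal.

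Differences between members do not depend on a factor common to an array. The log2 ratio of Amhr2 exceeded that of Amh by 1.05 ± 0.29 (software error) and that of Fshr by 1.11 ± 0.29. The signal of the receptor relative to that of its ligand was thus 2.07 times as high with the agonists as with the antagonists. Amh and Fshr differed by 0.06 ± 0.29, which is less than the error. With 1 array per group it is not known how far these differences vary between cultures.

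Since each member had 1 spot, the precision was judged from other probes. For the 63 probes that are printed at 10 spots and lie within 1 of Amh in mean log2 signal, the SD of the log2 ratio between spots had a median of 0.11 and reached 0.40. For the 8 such probes near Amhr2 the median was 0.04 and the highest 0.07. Different probes of a gene were compared by the size of their difference, which is another measure than these SDs and covers genes of any brightness. In 3781 genes with at least 2 probes that passed this mark in both groups, the brightest pair differed by a median of 0.14 in log2 ratio, 94.8% differed by less than the size of the Amh ratio and 83.4% by less than the size of the Amhr2 ratio.

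The sign of the 3 ratios was kept under 11 alternatives of processing. The median over spots, keeping outlier spots and the mean of all probes could not change them, since each member had 1 spot of 1 probe. The log2 ratio of Amh ranged from -0.72 to -0.39, that of Fshr from -0.79 to -0.45 and that of Amhr2 from 0.32 to 0.65. The ratios nearest to 0 for Amh and Fshr came with scaling on the spike-in controls, where the median of all probes was 0.18 in place of -0.10, or 0.14 without scaling. Counts of genes above and below 0 rest on the 75th percentile scaling in the same way and are read against the share of all genes.

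**Figure D3:**
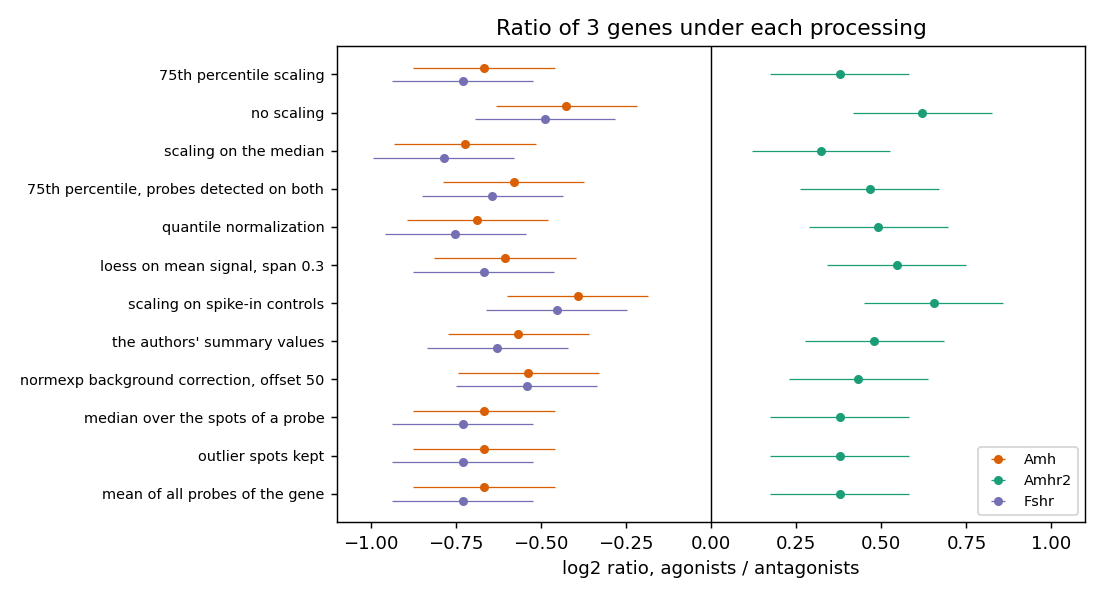
The log2 ratio of agonists to antagonists (horizontal axis) for Amh, Amhr2 and Fshr under 75th percentile scaling and 11 alternatives (rows); bars are the software's error of the spots under 75th percentile scaling. Amh and Fshr stay below 0, between -0.79 and -0.39, and Amhr2 stays above 0, between 0.32 and 0.65. The rows for the median over spots, outlier spots kept and the mean of all probes repeat the first by design, with 1 spot per gene.

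The pathway below AMHR2 was well above background for all 12 genes of its list of type I receptors, SMADs and ID targets. So were 15258 of the 20658 genes with a named probe. Of the list, 0 differed by 2-fold, where 4.01% of all genes measured on both arrays did so upward and 0.577% downward. Of the 12 genes, 4 had a log2 ratio above 0 and 8 below, where 37.7% of the 15258 genes well above background on both arrays were above 0 and 62.3% below. The median was -0.10, the same as that of all these genes at this precision. Of the type I receptors, Bmpr1b had a log2 ratio of 0.30, Bmpr1a -0.09 and Acvr1 -0.01. The largest differences by brightest probe were those of Smad9 (-0.50) and Smad1 (0.32), receptor-activated SMADs, and Smad4 (-0.37), their common partner. The other probe of Smad1 had 0.49, and that of Smad4 had -0.14.

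Genes that act on the AMH precursor or resemble its receptor went both ways. The convertase genes Pcsk5 and Pcsk6 had log2 ratios of 0.63 and -0.53, and Furin 0.09. Among the other type II receptors of the TGF-β family, 2 of 4 were above 0 and 2 below, with a median of -0.02. Tgfbr2, the receptor of TGF-β itself, had 0.63 from 5137 units with the agonists and 2815 units with the antagonists. Acvr2a, an activin receptor, had -0.47, while Acvr2b had 0.03 and Bmpr2 -0.06.

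The hormones of the gonadotropin receptors are made in the pituitary, and the arrays were searched for their genes. Fshb, the β subunit of FSH, was not well above background on either array, with 4.55 units for the agonists and 4.44 units for the antagonists. Cga, the shared α subunit, was not well above background either, at 10.2 and 4.53 units, nor were Tshb and Gnrhr. Lhb, the β subunit of LH, was well above background at 179 units with the agonists and 186 units with the antagonists, a log2 ratio of -0.29. Gnrh1 had 91.0 and 59.7 units and a log2 ratio of 0.37.

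Of the 6 other leucine-rich repeat receptors of the family of Fshr and Lhcgr, 3 were well above background on both arrays. Lgr5 had a log2 ratio of 0.48, Lgr6 0.43 and Lgr4 -0.11. Lgr6, which sets the median of these genes, had 34.5 units with the agonists and 21.7 units with the antagonists. These lie near the lowest signals well above background, 18.1 and 19.9 units. Rxfp1 was well above background with the agonists only, at 24.6 units beside 23.7 units, and Tshr and Rxfp2 on neither array. The median of the 3 measured genes was 0.43, or 0.22 with Rxfp1 at its bound. Relative to the median of all genes it was 0.53, and 0.0085 with the normexp background correction.

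Transcription factors known for the Amh and gonadotropin receptor promoters had 12 of 12 genes well above background, as were 15258 of the 20658 genes with a named probe. The list had 0 genes past 2-fold, where 4.01% of all genes measured on both arrays were past it upward and 0.577% downward. Its median was -0.11. Of them, 5 were above 0 and 7 below, where 62.3% of all genes measured on both arrays were below. Nr5a1, which encodes SF-1, had a log2 ratio of -0.29, from 7516 units with the agonists and 7758 units with the antagonists. Nr0b1, which encodes a repressor of SF-1, had 0.52, the largest size by brightest probe, followed by Usf1 (-0.31), an E-box factor. Usf2 had -0.25 for its brightest probe and -0.58 for the other. Esr2, the estrogen receptor of granulosa cells, had -0.25.

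The cyclic AMP pathway below the gonadotropin receptors had 17 of 17 genes well above background, as were 15258 of the 20658 genes with a named probe. It had 0 genes past 2-fold, where 4.01% of all genes measured on both arrays were past it upward and 0.577% downward. The median of the 17 genes was 0.09. Of these genes, 11 were above 0 and 6 below, where 37.7% of all genes measured on both arrays were above 0. Gnas, the stimulatory G protein, had 0.09 for its brightest probe and -0.29 for its lowest. The largest differences by brightest probe were those of the adenylyl cyclase Adcy7 (-0.87) and the protein kinase A subunit Prkar2a (-0.61). The phosphodiesterases Pde4d and Pde4b followed, with 0.47 each.

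Of 8 genes known to respond to FSH in granulosa cells, 7 were well above background on both arrays, as were 15258 of 20658 genes. Of these 7, 1 was above 0 and 6 below, where 62.3% of all genes measured on both arrays were below. The median was -0.19, beside -0.10 for all genes. Inhbb, the inhibin βB subunit, had 9120 units with the agonists and 17298 units with the antagonists, a log2 ratio of -1.17. It was the only gene of the list at least 2-fold lower, a size seen in 0.577% of all genes measured on both arrays. Ccnd2, a cyclin of granulosa cell division, had -0.80, and Inha, the inhibin α subunit, had -0.68. Cyp19a1, which makes estrogen, went the other way, with 300 units beside 197 units and a log2 ratio of 0.37. Grem1 was well above background with the agonists only.

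Theca and steroid genes of LH-responsive cells were measured in 9 of 10 cases, and no probe was matched for Insl3. Cyp17a1, the androgen-forming enzyme of theca cells, had 15415 units with the agonists and 17266 units with the antagonists, a log2 ratio of -0.41. Of the 9 genes, 3 were above 0 and 6 below, where 62.3% of all genes measured on both arrays were below. The median was -0.11, and 0 passed 2-fold, where 4.01% of all genes measured on both arrays did so upward and 0.577% downward. Cyp11a1, the first enzyme of steroid synthesis, had 0.79, Ptch1 -0.41 and Star -0.40, with 0.01 for the other probe of Star.

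Genes of the ovulatory LH response, which the preovulatory LH receptor switches on in mature follicles, were mostly dim. Of 10 genes, 4 were well above background on both arrays, 4 with the agonists only and 2 on neither. Tnfaip6 and Adamts1 had log2 ratios of 1.53 and 1.43, past the 2-fold difference that 4.01% of all genes exceeded upward. Areg had 0.60, and Pgr had -0.53 for its brightest probe and 1.04 for the other. Where the antagonist signal was not well above background, the lowest signal with that mark stood in for it or the signal itself where higher, which gave at least 5.38-fold higher with the agonists for Ereg and at least 4.65-fold for Has2. The median of the 4 genes was 1.01, or 1.05 with such genes at their bound. Relative to the median of all genes it was 1.11, and 0.54 with the normexp correction. The list includes Ptgs2, which the study picked from these arrays and which was at least 1.58-fold higher, so it is not independent of that choice.

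**Figure D4:**
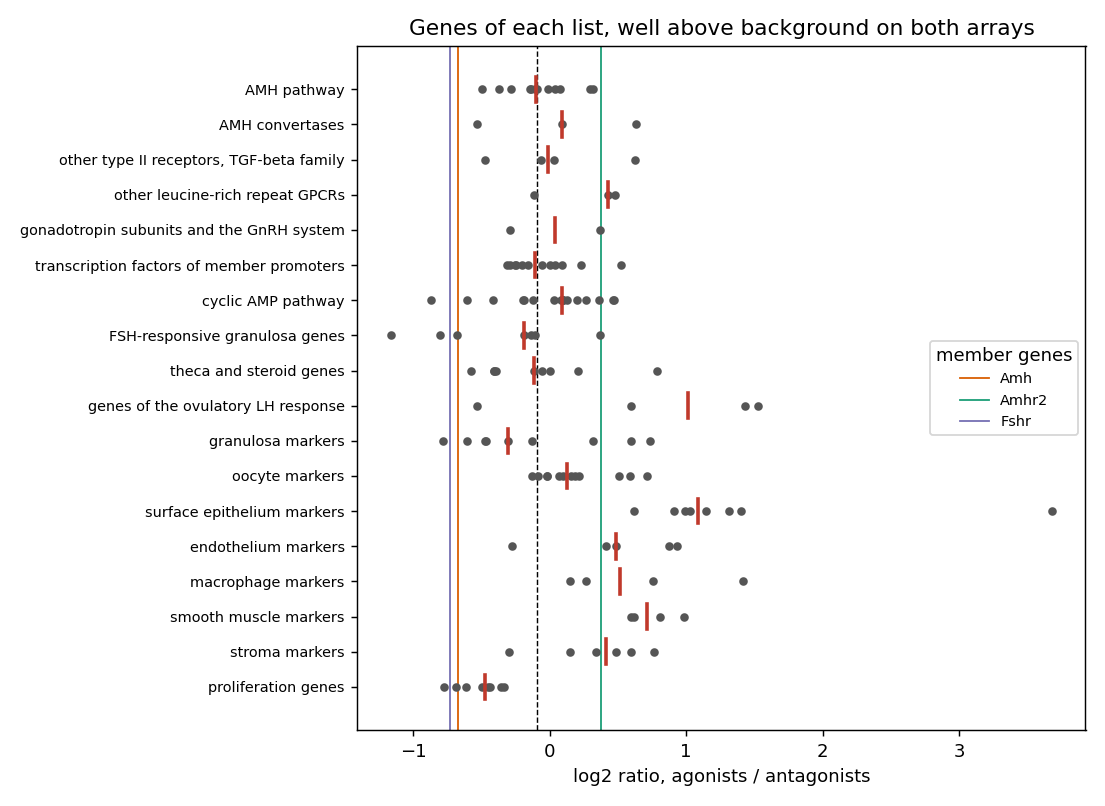
The log2 ratio of agonists to antagonists (horizontal axis) for the genes of each list that were well above background on both arrays (points) with the list's median (red bar); the dashed line is the median of all such genes, and coloured lines are Amh, Fshr and Amhr2. Amh and Fshr, at -0.67 and -0.73, lie left of every list median, and the surface epithelium markers have the highest one, at 1.09.

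Markers of ovarian cell types were set beside the members. On both arrays, 9 of 9 granulosa markers and 12 of 12 oocyte markers were well above background. So were 15258 of the 20658 genes with a named probe, so detection alone does not identify the tissue. The granulosa markers had a median of -0.30, with 3 above 0 and 6 below, where 62.3% of all genes measured on both arrays were below. Fst, the activin-binding follistatin, had -0.78 and Serpine2 had -0.60, near Amh and Fshr, while Irx3 had 0.74 and Gatm 0.60. Foxl2, the granulosa identity factor, had 0.32 for its brightest probe and -0.37 for the other. The signals of the granulosa list summed to 51048 units with the agonists and 47779 units with the antagonists, which is -0.15 as a scaled log2 ratio. Amh and Fshr thus lay at the low end of a granulosa list that ran from -0.78 to 0.74. The part of the granulosa cell share in their difference was not tested.

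Oocyte markers had a median of 0.13, with 8 above 0 and 4 below, and included genes of early follicles such as Figla (0.59) and Sohlh1 (0.51), transcription factors of primordial and growing oocytes, and Kit (0.71). The oocyte sum had a log2 ratio of -0.03. Of all genes measured on both arrays, 37.7% were above 0. All 8 proliferation genes were below 0 by their brightest probes, where 62.3% of all genes measured on both arrays were below. They had a median of -0.47 and values from -0.77 for Top2a to -0.33, on the side of Amh and Fshr. The 3 probes of Cdk1 ran from -0.44 to 0.03. The part of the proliferation genes was not tested.

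Most markers from outside the follicle lay on the side of Amhr2, and so did 8 of 12 oocyte markers and 3 of 9 granulosa markers. Of those from outside, Lum (-0.30) went the other way, as did Kdr with -0.27 for its brightest probe and 0.38 for the other. AMHR2 is known from follicles and also from the surface epithelium and stroma of the ovary. Of 8 surface epithelium markers, 8 were above 0 and 5 at least 2-fold higher, where 37.7% of all genes measured in both groups were above 0 and 4.01% at least 2-fold higher. The median of these markers was 1.09, beside -0.10 for all genes, and their signals summed to 27765 units with the agonists and 10126 units with the antagonists. Among the other lists, 5 of 6 stroma markers were above 0 with a median of 0.41, and the sum of the list was 247531 and 176287 units. The medians were 0.71 for smooth muscle, with 4 of 4 genes above 0, 0.51 for macrophages, with 4 of 4, and 0.48 for endothelium, with 4 of 5; Des, Fcgr1 and Tek were well above background with the agonists only, and no probe was matched for Cd68. None of the markers of these 5 lists with a probe was at background on both arrays. The part of these cell types in the Amhr2 difference was not tested.

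By distance in the scaled log2 signals of the arrays, the genes nearest to Amh were 4930579G24Rik, Garem1 and Fshr, in this order, and those nearest to Fshr were Ifi44, Amh and Garem1. The distance of Amh and Fshr was 0.0455. A distance over 2 arrays is weak, since 10 genes lay within 0.1 of Amh and 7 within 0.1 of Fshr. The nearest to Amhr2 were Flna, Itga6 and Sptbn1, with log2 ratios of 0.29, 0.25 and 0.24.

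Protein-coding neighbours of members on the chromosome were read for comparison, with the order of genes taken from RefSeq and chosen after the values of the members were seen. Fshr and Lhcgr are next to each other on chromosome 17, and 1 was detected and the other not. On chromosome 10, Sf3a2 and Jsrp1 on either side of Amh had log2 ratios of 0.07 and 0.28, so neither shared the sign of Amh. On chromosome 15, the neighbours of Amhr2 were Sp1, with -0.06, and Prr13, with 0.36.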

How the data were processed

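RNA of ovary pieces was labelled with Cy3 and hybridised to SurePrint G3 mouse arrays, 1 per group, and groups were taken from the labels. The authors read the arrays with Agilent Feature Extraction 10.10.1.1 and deposited linear spot intensities, background-subtracted and not scaled between arrays. They also deposited summary intensities, which equal the processed signal times 1.99 (agonists) or 2.19 (antagonists). The array design names build mm9, so RefSeq tables of GRCm38.p6 served for names, gene order and promoter sequences only.

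Control spots and outlier spots were left out, and log2 signals were reduced by the 75th percentile of their array. Spots of a probe were averaged, and a probe was taken to be above background if more than 50% of its spots had the mark. Of 55674 probes, 27230 had a gene symbol, and the brightest probe stood for a gene. With 1 array per group, no test was made, and the number of arrays limits the precision. Members and lists were chosen with earlier results of these data known. Named genes are the members, their direct partners and up to 4 genes per list with the largest ratios, and some genes are not reported here. Alternatives were other scalings, the authors' values, normexp (offset 50, on median spot signals), other summaries, filters and a 4-fold threshold. The calculation was tested on simulated data. Python 3.11.15, numpy 2.4.6, pandas 2.3.3, statsmodels 0.14.6, matplotlib 3.10.9, R 4.3.3 and limma 3.58.1 were used.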

Additional observations from a re-analysis of the deposited data

How the results depend on the processing

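No paired analysis was possible because each group has 1 array and no test was made; for the same reason no replicate could be left out. The log2 ratios of Amh, Amhr2 and Fshr were -0.43, 0.62 and -0.49 without scaling between arrays and -0.39, 0.65 and -0.45 with scaling on spike-in controls, and moved by less than the software's error under the other 9 alternatives. Both scalings shift every probe by a constant. Of the other alternatives, the median over spots, keeping outlier spots and the mean of all probes could not change a gene with 1 spot of 1 probe. Lhcgr was not well above background and has no ratio in any setting. With 75th percentile scaling, 890 probes passed 2-fold upward and 233 downward. These numbers were 1499 and 98 without scaling, 1625 and 88 on spike-in controls, 410 and 60 after normexp, 3339 and 2333 where dim probes stayed in, 231 and 31 at or above the 75th percentile, and 127 and 18 at 4-fold. The authors' values gave 149 downward. The cause was not tested for normexp.

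Of 198 alternative values of list medians relative to all genes, over 18 lists, 8 had the opposite sign, in 3 lists. Many of the 198 values were fixed in advance, since a constant shift of every probe cancels in such a difference. These were the values without scaling, with scaling by a constant factor per array and with the authors' values. The share of 8 in 198 is therefore not a rate of reversal. The AMH pathway list, at -0.0033, was 0.0505 with quantile normalization, 0.0381 with loess, 0.0219 with normexp and 0.0147 with the mean of all probes. The theca list, at -0.0186, was 0.0285, 0.0228 and 0.0250 with the first 3 of these. The convertase list, at 0.19, was -0.0612 with the mean of all probes, and the cause was not tested.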
